A study of Mus musculus with 6 samples.

Results

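The genes described here are 10 regulators and markers of epithelial and mesenchymal state in mouse mammary tumor cells. They are the mesenchymal regulators Snai1, Snai2, Twist1, Zeb1 and Zeb2, the epithelial regulators Grhl2, Ovol1, Ovol2 and Esrp1, and the mesenchymal filament gene Vim. They were taken by gene symbol, not by a cut on their values, though with earlier results of these data known. The table has 24308 rows, of which 22001 remain when 1 row is kept for each symbol that stands alone on a row. Each of the 10 symbols had exactly 1 row. The samples were epithelial cells enriched from breast tumors of similar size, taken from 7-week-old female FVBN mice. All mice were PyMT, that is, they carried the polyoma middle T oncogene. In addition, 3 samples are labelled as PyMT control, and the other 3 as Elp3 cKO, made with MMTV-Cre, a recombinase driven by a promoter active in mammary epithelium and not only there. The labels used here do not say which promoter drives PyMT. PolyA RNA was sequenced, and the unit is FPKM: fragment counts corrected for transcript length and library size, so that levels of different genes can be set side by side.

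Epithelial cells hold together through E-cadherin and tight junctions, and a small circuit of transcription factors decides whether they keep these contacts. Snail (Snai1), Slug (Snai2), Zeb1 and Zeb2 are zinc finger repressors that bind E-boxes in promoters of junction genes, and Twist1 is a basic helix-loop-helix factor that acts in the same program. Grhl2, Ovol1 and Ovol2 oppose them: Grhl2 activates junction genes, and the Ovol proteins repress mesenchymal genes, Zeb1 among them. Esrp1 is an RNA-binding protein that sets the epithelial splice forms of transcripts such as Fgfr2 and Cd44. The microRNAs of the miR-200 family and the Zeb factors repress each other. Vim encodes vimentin, the intermediate filament of mesenchymal cells.

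The miR-200 family is shown because its seeds separate the Zeb genes from the other members. The mature sequences are from RefSeq (GRCm38.p6), 5′ to 3′, with the seed, bases 2 to 8, in capitals. The first 3 share a seed, and the last 2 share another.
mmu-miR-200b-3p: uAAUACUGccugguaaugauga
mmu-miR-200c-3p: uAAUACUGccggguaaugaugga
mmu-miR-429-3p: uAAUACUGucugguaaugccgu
mmu-miR-200a-3p: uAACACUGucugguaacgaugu
mmu-miR-141-3p: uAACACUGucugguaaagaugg

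Matches to these seeds were counted in the longest 3′ UTR annotated for each gene by GENCODE M21 (GRCm38), on the sense strand. The motifs were CAGTATT for the first seed and CAGTGTT for the second, which cannot overlap on the same bases. Zeb1 held 5 matches to the first and 4 to the second in a 3′ UTR of 2404 bases. Zeb2 likewise held 5 and 4, in 4944 bases. Of 21685 genes with a 3′ UTR, 25% had 1 or more match to either seed, and 3 genes (0.0138%) had 9 or more: Zeb1, Zeb2 and D10Wsu102e, whose annotated 3′ UTR is 122586 bases long. Among the 4150 genes with a 3′ UTR at least as long as that of Zeb1, the share was 0.0723%. Zeb1 has the shortest 3′ UTR of the 3, so the same 3 genes are counted in both shares. The higher share therefore does not show how matches depend on length. Snai2 had 2 matches, and Snai1 and Grhl2 had 1 each. None was found in Twist1, Ovol1, Ovol2, Esrp1 or Vim. The 5 matches to the first seed in Zeb2 follow, in capitals, from the minus strand of chromosome 2 (GRCm38). They are named by position in the 3′ UTR, counted from the first base of the stop codon, and lie between chr2:44987520-44987542 and chr2:44988166-44988188.
Zeb2 at 396: ccatacatCAGTATTttattatt
Zeb2 at 461: cagtgcatCAGTATTacgattcc
Zeb2 at 823: acccgtgtCAGTATTagacgact
Zeb2 at 908: aattttgtCAGTATTacaccaaa
Zeb2 at 1042: gtagtgtaCAGTATTatagttct

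A match is a stretch of letters, and binding was not measured. Mature microRNAs were not measured either, since the libraries hold polyA RNA. Rows exist for the hairpin genes: Mir200a, Mir200b, Mir141 and Mir200c were listed at 0 in every profile. Mir429 stood at 1.33, 2.51 and 1.36 FPKM in profiles 1, 2 and 3, the distinct expression profiles of the table. Its row spans chromosome 4, 156032024 to 156059816, far wider than a hairpin. The rows of Mir200a and Mir200b have this same span, and how reads were divided between them is not known.

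Promoters were searched for the E-box that Snail and Zeb proteins bind, CACCTG, on both strands (CAGGTG on the other). RefSeq windows of 300 bases were used, 250 before the annotated start and 50 after it (GRCm38.p6). Of 20 epithelial surface and junction genes known or proposed as targets of these factors, 14 had a window, and 12 of the 14 held the E-box. The share was 22.6% among all 27025 genes with a window, and 20.2% of all 32851 windows held it. Of 16 mesenchymal effector genes, 7 had a window and 0 of the 7 held the E-box. It was not confined to epithelial genes: 4 of 6 lymphocyte markers with a window held it. The target list was drawn from knowledge of this pathway, in which such E-boxes are part of why a gene is called a target, so the share is no independent evidence. Among the 10 members, 5 had a window. Snai1 held 1 E-box, and Twist1, Ovol2, Vim and the 4 windows of Zeb2 held none. The windows of Snai1 (chr2:167537945-167538244, plus strand), of Cldn4 (chr5:134946885-134947184, minus strand), which encodes a tight junction claudin, and of Crb3 (chr17:57061951-57062250, plus strand), an apical polarity gene with 4 E-boxes in this window of its 2, are shown with E-boxes in capitals.
Snai1: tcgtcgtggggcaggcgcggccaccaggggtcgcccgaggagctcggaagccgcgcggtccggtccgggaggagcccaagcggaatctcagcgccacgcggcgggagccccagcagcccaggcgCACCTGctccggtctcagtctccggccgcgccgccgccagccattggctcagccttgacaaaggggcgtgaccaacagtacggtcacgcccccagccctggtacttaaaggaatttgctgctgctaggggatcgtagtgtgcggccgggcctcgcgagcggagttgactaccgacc
Cldn4: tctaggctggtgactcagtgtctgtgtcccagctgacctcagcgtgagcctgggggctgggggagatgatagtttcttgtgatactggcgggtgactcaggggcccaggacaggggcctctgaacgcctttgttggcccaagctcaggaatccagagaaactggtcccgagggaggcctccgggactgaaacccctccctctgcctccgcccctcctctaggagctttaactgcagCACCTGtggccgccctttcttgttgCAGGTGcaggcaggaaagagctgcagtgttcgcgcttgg
Crb3: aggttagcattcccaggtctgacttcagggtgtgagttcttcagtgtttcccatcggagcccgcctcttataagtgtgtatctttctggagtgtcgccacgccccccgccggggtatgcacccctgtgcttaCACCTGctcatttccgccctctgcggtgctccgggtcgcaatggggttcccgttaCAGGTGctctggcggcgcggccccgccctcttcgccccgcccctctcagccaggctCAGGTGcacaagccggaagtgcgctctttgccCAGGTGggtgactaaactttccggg

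**Figure D1:**
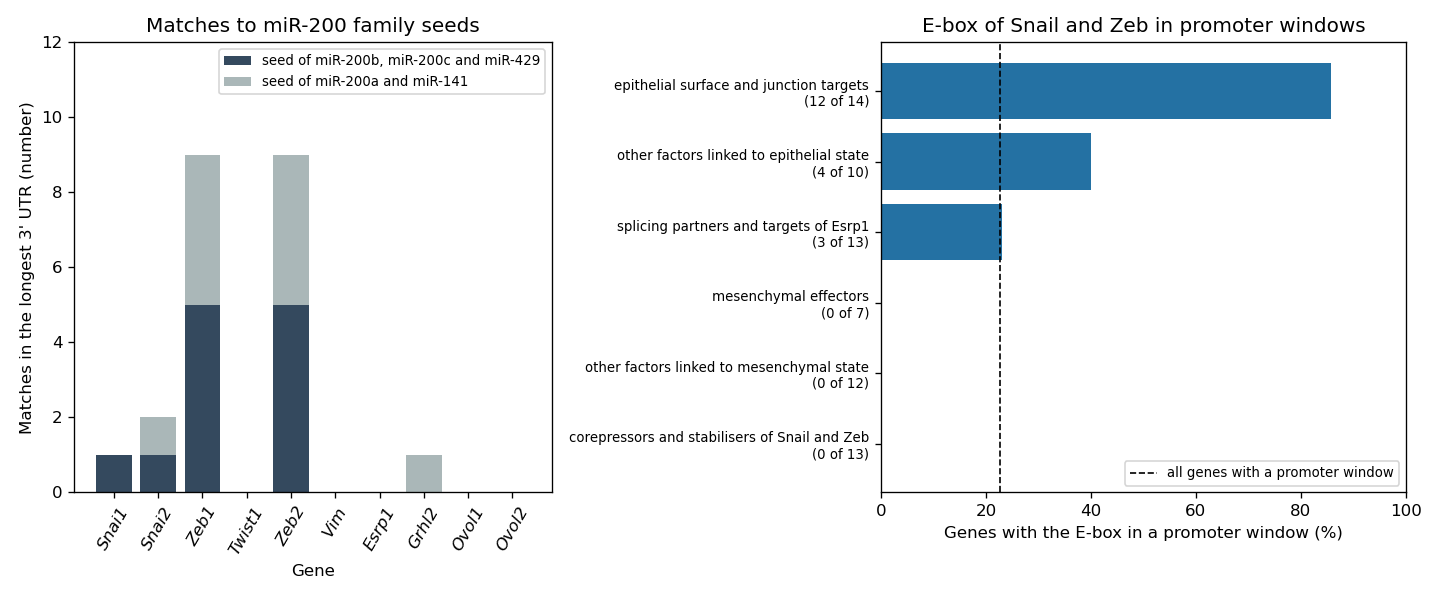
Left, number of matches to the 2 miR-200 family seeds in the longest 3′ UTR of each member, with 9 in Zeb1 and 9 in Zeb2 against at most 2 in any other. Right, share of genes in each list with the E-box in a promoter window, against 22.6% of all genes (dashed line); 12 of 14 epithelial surface and junction genes and 0 of 7 mesenchymal effectors held it.

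The control and Elp3 cKO columns of the same number were equal in all 24308 rows, with 0 rows that differ for each of the 3 numbers. The table therefore holds 3 distinct profiles, called 1, 2 and 3 by their number, and neither genotype can be assigned to them. No comparison between genotypes was possible, and values below are given per profile with no test. A mean over the profiles is used only to set a minimum level. Elp3, the targeted gene, stood at 15.6, 17.9 and 19.0 FPKM. Summed FPKM ranged from 621793 to 636842. Profile 3 stood apart by salivary secretory genes, with Smr3a at 0.615, 0.239 and 561 FPKM. Some counts of members are therefore also given without it, while the counts over other gene lists include it. The labelled epithelial identity was visible in every profile: Krt18 and Krt8, the keratins of simple epithelium, had 4232 and 3060 FPKM or more. Lymphocyte markers summed to at most 0.550 FPKM, and 6 of 10 were listed at 0 in all profiles. Depth is unknown from FPKM, so no counting interval can be given.

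Of the 10 members, 9 had a mean of 1 FPKM or more over the profiles, against 49% of all rows. By the stricter count of 1 FPKM or more in every profile it was 7, for which no share of all rows was computed. Ordered by median, Vim came first at 66.6 FPKM and Esrp1 next at 59.4, followed by Grhl2 at 16.0 and Ovol1 at 15.9. Snai1 had 4.65, Snai2 3.54 and Ovol2 1.83. Zeb1 had a median of 1.40, Twist1 1.32 and Zeb2 1.10. The ranges over profiles overlapped between Vim and Esrp1, between Grhl2 and Ovol1, between Zeb1 and Twist1 and between Twist1 and Zeb2. At the other 5 steps of this order the ranges did not overlap. The lowest 3 genes were thus not separated by range, although Twist1 was above Zeb2 in each of the 3 profiles.

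**Figure D2:**
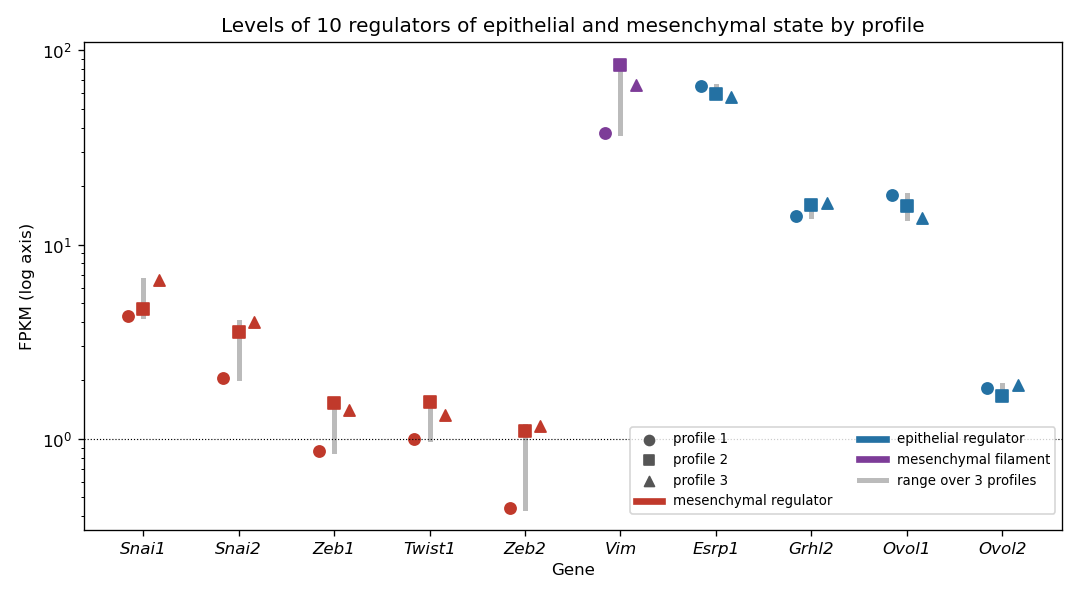
FPKM of each member (log axis) in profiles 1 (circles), 2 (squares) and 3 (triangles), with grey bars for the range. All 5 mesenchymal regulators and Vim had their lowest value in profile 1, while Esrp1 ranged only from 57.4 to 65.6 FPKM and Ovol2 from 1.67 to 1.90.

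Snai1, which encodes the repressor Snail (chromosome 2, 167538227 to 167542811, mm10), stood at 4.27, 4.65 and 6.60 FPKM in profiles 1, 2 and 3. Profiles 1 and 2 were close, and profile 3 was 1.42 times profile 2. Snai2, which encodes Slug (chromosome 16, 14705596 to 14710443) and is also a factor of basal mammary cells, stood at 2.05, 3.54 and 3.97 FPKM. Here profile 1 was the low one, and profiles 2 and 3 were 1.72 and 1.93 times its level. Snai1 exceeded Snai2 in every profile, by ratios of 2.08, 1.32 and 1.66, which no constant factor per library can change. The third Snail gene, Snai3, was highest where these were lowest, at 1.64, 0.959 and 1.33 FPKM. Of the Scratch repressors, which share the zinc finger type of Snail and act mainly in neurons, Scrt1 was listed at 0, 0.0149 and 0 FPKM and Scrt2 at 0 throughout.

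Twist1 (chromosome 12, 33957671 to 33959831) stood at 0.992, 1.54 and 1.32 FPKM, lowest in profile 1. Its paralog Twist2, a factor of dermal and other connective tissue cells, stood at 1.53, 7.59 and 4.10 FPKM. Both had the same order of profiles, but Twist2 spanned a wider range, so the ratio of Twist2 to Twist1 was 1.54, 4.92 and 3.10. Twist2 was the more abundant of the 2 in every profile.

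Zeb1 (chromosome 18, 5491501 to 5775468) stood at 0.868, 1.52 and 1.40 FPKM, with profiles 2 and 3 at 1.75 and 1.62 times profile 1. Zeb2 (chromosome 2, 44983634 to 45114084) stood at 0.440, 1.10 and 1.16 FPKM, or 2.50 and 2.64 times profile 1. Zeb2 had the largest ratio of highest to lowest profile among the 10 genes. Zeb1 exceeded Zeb2 in each profile, by 1.97, 1.38 and 1.21 times. The kit is not described as keeping strand, so reads of genes on the opposite strand cannot be told apart. The Zeb1 row begins well before the annotated gene and takes in Gm10125, whose own row reached at most 0.0432 FPKM. For Zeb2 it includes Zeb2os. The row Gm13476, at the locus of Zeb2, reached at most 0.0552 FPKM.

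Vim (chromosome 2, 13574040 to 13582826) stood at 37.8, 84.5 and 66.6 FPKM. Profile 1 was far below the others, which were 2.24 and 1.76 times its level. Relative to Krt18, an epithelial filament gene, Vim was lower throughout: Krt18 was 112, 59.3 and 74.4 times as high. Other filament genes were Lmna, for lamin, at 207, 201 and 168 FPKM, and Nes, for nestin of progenitor cells, at 27.5, 37.6 and 55.4. Des, the desmin of muscle, reached at most 0.424 FPKM, and Vim was at least 157 times as high in each profile.

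Among epithelial regulators, the splicing factor Esrp1 (chromosome 4, 11331933 to 11388671) was the highest, at 65.6, 59.4 and 57.4 FPKM. Its highest profile was 1.14 times its lowest. Its paralog Esrp2 followed at 30.0, 27.4 and 22.6 FPKM, and the ratio of Esrp1 to Esrp2 was 2.19, 2.17 and 2.54. Of the transcripts that Esrp1 is known to splice, Ctnnd1 (p120 catenin) had a median of 111 FPKM (105 to 112) and Cd44 86.3 (84.8 to 95.2). Fgfr2 was low, at 1.84, 3.68 and 3.87 FPKM. These are values per gene, and the splice forms were not measured. The splicing list was led by Ptbp1, a repressor of exon inclusion, at 143 FPKM (141 to 157).

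Grhl2 (chromosome 15, 37229398 to 37363570) stood at 14.1, 16.0 and 16.3 FPKM, the only epithelial regulator of the 4 that was lowest in profile 1. Profiles 2 and 3 were 1.14 and 1.16 times that level. Grhl1, which encodes a related factor of surface epithelium, had 11.5, 11.3 and 9.21 FPKM, and the epidermal factor gene Grhl3 had a median of 1.5 FPKM. Grhl2 was above Grhl1 in each profile, by ratios of 1.22, 1.41 and 1.77.

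Ovol1 (chromosome 19, 5549137 to 5577099) stood at 18.1, 15.9 and 13.8 FPKM, highest in profile 1. Its row covers a longer stretch than the annotated gene and includes Ap5b1 on the opposite strand. The row Gm962 at the same locus had the same order, at 5.03, 4.18 and 3.11 FPKM, and how reads were divided between these rows is not known. Ovol2 (chromosome 2, 144305176 to 144332080) stood at 1.83, 1.67 and 1.90 FPKM, the narrowest range of the 10 genes. Ovol1 was 9.89, 9.51 and 7.25 times Ovol2. Ovol2 was thus nearer to its target Zeb1 than to the other epithelial regulators. Ovol3 was in no row.

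Epithelial regulators outweighed mesenchymal ones in each profile. The median over the 4 epithelial genes was 16.1, 15.9 and 15.0 FPKM, against 0.992, 1.54 and 1.40 over the 5 mesenchymal genes, a ratio of 16.2, 10.3 and 10.7. On the log2 scale this ratio had a median of 3.42 (3.37 to 4.02). In each profile, 18 of the 20 pairs of an epithelial and a mesenchymal gene had the epithelial gene higher. The exceptions were Snai1 and Snai2 against Ovol2. Summed levels were 99.6, 93.0 and 89.3 FPKM for the epithelial regulators and 8.62, 12.4 and 14.5 FPKM for the mesenchymal ones, so the ratio of sums was 11.5, 7.53 and 6.18. Esrp1 alone gave 65.6, 59.4 and 57.4 FPKM of the epithelial sums. With Vim added, the mesenchymal sums were 46.4, 96.9 and 81.1 FPKM, above the epithelial sum in profile 2. In single pairs of regulators, Esrp1 was 75.7, 39.0 and 40.8 times Zeb1, and 149, 54.0 and 49.3 times Zeb2. Downstream, Cdh1, E-cadherin, had 336, 333 and 321 FPKM, and Cdh2, N-cadherin, 0.266, 0.243 and 0.429. Genes are not replicates, so no test was made of these ratios.

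The profiles differed in the mesenchymal genes more than in the epithelial ones. All 5 mesenchymal regulators and Vim were lowest in profile 1, against 1 of 4 epithelial regulators. Of these 4, Ovol1 and Esrp1 were highest in profile 1, and Grhl2 and Ovol2 in profile 3, where 36.5% of all rows at 1 FPKM or more were highest. Of the 9 members with a mean of 1 FPKM or more, 6 were lowest in profile 1, where 40.1% of all such rows were lowest. Earlier results of these data had shown matrix and mesenchymal effector genes lowest in profile 1, so the counts of members lowest there are no independent support. Zeb2, at a mean of 0.902 FPKM, was the 1 member below that minimum. A ratio of highest to lowest profile of 1.5 or more was seen in all 5 mesenchymal regulators and Vim and in 0 of 4 epithelial regulators, and in 18.5% of all rows at 1 FPKM or more. Zeb2 lies below the minimum of those rows, and without it 5 of 5 passed. Snai2, Twist1 and Zeb1 had low means of 3.19, 1.29 and 1.26 FPKM. Among epithelial regulators only Ovol2 was as low, at 1.80, against 15.5 for Grhl2, 15.9 for Ovol1 and 60.8 for Esrp1. No share was computed for rows of similar level, so the part of low level in this contrast was not tested. Under quantile normalization 4 of the 6 (the mesenchymal regulators and Vim) passed, without Snai1 and Twist1. The count was 5 of 6 without profile 3, which left out Snai1 (8.44% of all rows), 5 of 6 without profile 2, which left out Twist1 (13.2%), and 0 of 6 without profile 1 (8.62%). In 4 members (Snai2, Zeb1, Zeb2 and Vim) profiles 2 and 3 were both 1.5 times profile 1 or more, 3 of them among the 9 at 1 FPKM or more, against 3.86% of all such rows. Twist1, just outside, had 1.56 and 1.33 times, and Zeb1, just inside, 1.75 and 1.62. These thresholds were chosen with the values in view, so the counts are descriptions. Profile 3 was not needed for the order: without it, profile 2 exceeded profile 1 in all 5 mesenchymal regulators and Vim, though by only 1.09 times in Snai1. The excess was 1.5 times or more in 5 members, with Twist1 added to the 4. The share of all rows in this direction alone was not computed, and the 8.44% above counts both directions. Across all rows at 1 FPKM or more, the median ratio to profile 1 was 1.01 for profile 2 and 1.01 for profile 3. The authors' deposited summary column, which holds no sample, gives another value for each gene. If it is a mean of 9 values that counts each profile 2 times, 3 values are left, and their mean lay above all profiles for 8 of 10 members. Of the 9 at 1 FPKM or more it was 7, against 29.3% of all such rows.

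**Figure D3:**
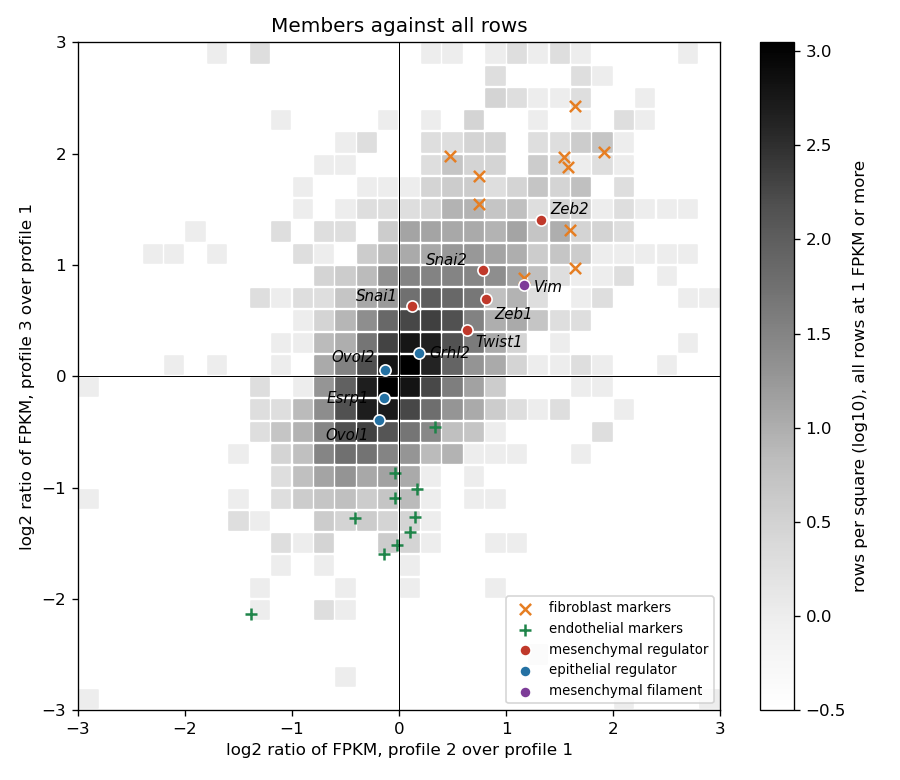
Log2 ratio of FPKM to profile 1, for profile 2 (x axis) and profile 3 (y axis). Grey squares count the 10750 rows at 1 FPKM or more that are above 0 in each profile, with values beyond 3 drawn at the edge. The mesenchymal regulators and Vim lie above 0 on both axes, on the side of the fibroblast markers (crosses), while endothelial markers (plus signs) lie below 0 on the y axis.

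Markers of some other cell types, but not of all, were lowest in profile 1 as well. All 10 fibroblast markers were lowest in profile 1, against 40.1% of all rows at 1 FPKM or more. In 9 of them profiles 2 and 3 were both 1.5 times profile 1 or more, against 3.86% of such rows. Earlier results of these data had shown matrix genes lowest in profile 1, so these counts are no independent support. The summed level of the 10 markers was 92.9, 214 and 341 FPKM. The matrix gene Dcn had 18.2, 54.4 and 66.8 and the matrix gene Postn 13.0, 40.7 and 70.3. Of the 10 markers, 7 were highest in profile 3, among them Dcn and Col3a1, the genes that Vim and the Zeb genes are set against below. Pdgfra, Pdgfrb and Thy1 were highest in profile 2, as Vim was. Thy1 had 2.98, 6.67 and 5.50 FPKM. Its profiles 2 and 3 were 2.24 and 1.84 times profile 1, against 2.24 and 1.76 times for Vim. In bulk samples, fewer cells of a type and less RNA per cell cannot be told apart, and the part of fibroblasts in the levels of Vim, Zeb1, Zeb2, Twist1 and Snai2 was not tested. Relative to Dcn, Vim was highest in profile 1, at ratios of 2.08, 1.55 and 0.997. Zeb1 relative to Dcn had ratios of 0.0477, 0.0280 and 0.0210, and Zeb2 0.0242, 0.0202 and 0.0174. Against the collagen gene Col3a1 the order was another: Vim had ratios of 2.50, 4.03 and 1.12 and Zeb2 0.0292, 0.0525 and 0.0196, highest in profile 2. From profile 1 to profile 2, 7 of the 10 fibroblast markers had a larger ratio than Vim and 6 a larger one than Zeb2, and for profile 3 over profile 1 it was 10 and 7.

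Of 10 myoepithelial and basal markers, 9 had a mean of 1 FPKM or more and 6 of these were lowest in profile 1. Their summed level was 608, 746 and 668 FPKM, led by Krt14 at 239, 320 and 215 and Krt17 at 194, 215 and 204. The contractile genes of the list were lowest in profile 1 and highest in profile 3, as were 7 of the 10 fibroblast markers. The actin gene Acta2 stood at 18.5, 34.3 and 74.0 FPKM. Acta2, Oxtr, Cnn1 and Myh11 were the 4 of 9 with profiles 2 and 3 both 1.5 times profile 1 or more. The part of such cells in the levels of Snai2, Vim and the other mesenchymal regulators was not tested. Endothelial markers, in cells that also express Vim and Zeb genes, showed another order, with 0 of 10 lowest in profile 1 and sums of 52.4, 50.3 and 22.5 FPKM. Emcn, with the highest mean, had 9.25, 9.95 and 3.50 FPKM. Pericyte and smooth muscle markers were low, with sums of 12.2, 18.1 and 22.3 FPKM, of which Notch3 gave 9.43, 10.1 and 8.22. The other 7 summed to 2.75, 8.03 and 14.0 FPKM, mostly from Cnn1 at 1.06, 3.90 and 6.61 and Myh11 at 0.865, 2.71 and 5.70, both of which also mark myoepithelial cells. Macrophage and myeloid markers summed to 3.78, 3.15 and 5.58 FPKM over 8 measured genes, led by Lyz2 at 2.17, 1.44 and 3.25. The pan-leukocyte gene Ptprc stood at 0.0825, 0.0677 and 0.0969 FPKM. The luminal sum was 10747, 10901 and 11449 FPKM, led by Krt18 and Krt8. The glial and Schwann cell markers summed to 104, 115 and 132 FPKM, of which Sox10, also a factor of mammary epithelium, gave 77.0, 86.6 and 102. Adipocyte markers summed to at most 1.46 FPKM.

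**Figure D4:**
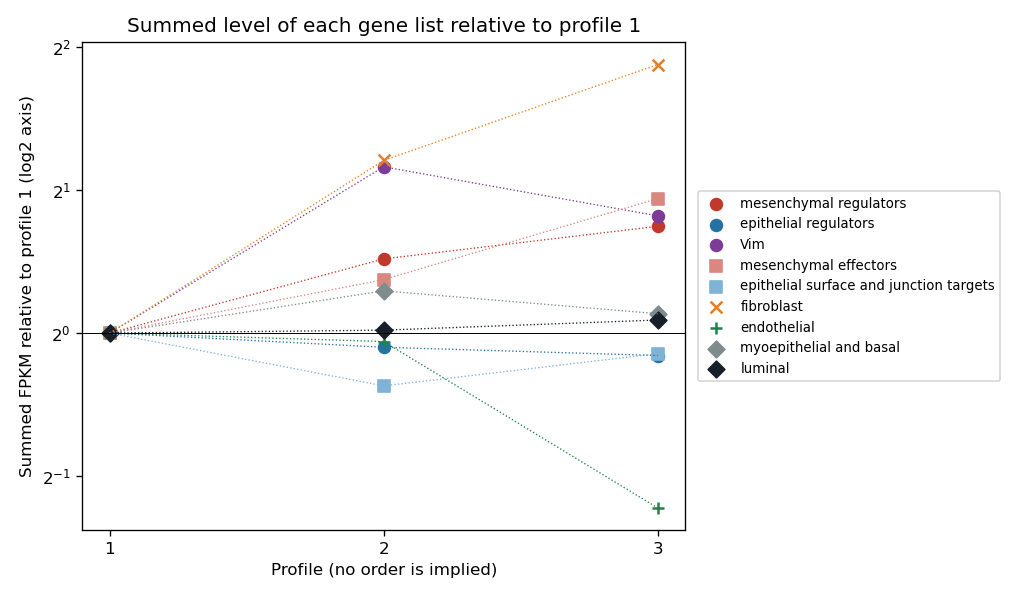
Summed FPKM of each gene list relative to profile 1 (log2 axis); dotted lines only join points of a list and imply no order of profiles. Fibroblast markers summed to 92.9, 214 and 341 FPKM, the mesenchymal regulators to 8.62, 12.4 and 14.5, the epithelial regulators to 99.6, 93.0 and 89.3 and the endothelial markers to 52.4, 50.3 and 22.5.

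Other genes of the pathway showed the order of profiles in part. Of 16 mesenchymal effectors, 15 were measured, 12 had a mean of 1 FPKM or more and 10 of these were lowest in profile 1. The share of all such rows was 40.1%. Earlier results of these data, in which mesenchymal effectors were lowest in profile 1, led to this count, so it is no independent support. The integrin gene Itgb1, which epithelial cells use too, stood at 234, 231 and 280 FPKM. S100a4 stood only in a row shared with S100a3. Of 20 epithelial surface and junction genes, all were at 1 FPKM or more, 2 were lowest in profile 1 and 15 were highest there, against 34.8% of all rows at 1 FPKM or more. Cldn4 had 1222, 744 and 1101 FPKM, and the adhesion molecule Epcam 867, 763 and 800. Crb3, the polarity gene with 4 E-boxes, had 91.7, 63.4 and 65.2. The levels of Cldn4 and Epcam were lowest in profile 2, which did not hold for the whole list. Those of Cdh1, Rab25, Prss8, Pkp3, Jup and Mal2 were lowest in profile 3.

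Among 19 further factors linked to the mesenchymal state, 16 were measured, 10 were at 1 FPKM or more and 3 of these were lowest in profile 1. Most abundant were Id2, an inhibitor of helix-loop-helix factors, at 64.0 FPKM (61.0 to 69.2), and Tcf12, an E protein, at 43.6 (38.0 to 44.3). Prrx1, a factor of limb and connective tissue mesenchyme, stood at 2.82, 7.04 and 6.64, with profile 1 the low one. Of 15 factors linked to the epithelial state, 13 were at 1 FPKM or more and 5 of these were lowest in profile 1, near the 40.1% of all rows. They were led by Cebpb at 184 (136 to 199.7) and Klf5 at 124 (119 to 136). Corepressors and regulators of protein stability on which Snail and Zeb proteins depend were expressed throughout, 17 of 18 at 1 FPKM or more. The kinase gene Csnk1e had 98.1 FPKM (84.9 to 98.3) and the demethylase gene Kdm1a, which Snail recruits, 66.8 (66.6 to 73.0). Of these 17 genes, 8 were lowest in profile 1, again near the background.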

How the data were processed

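Levels were read from the authors' deposited table of FPKM per gene, a text copy of a workbook sheet. The submitters' processing notes name mm10, Cuffdiff, Cufflinks 2.1.1 and TopHat2 2.0.9. What each did, with which annotation and library scaling, is not stated there. Each sample column carries its sample's name, and 0 columns had no match. Rows without a symbol (1366) and rows naming several genes (514) were left out. Starts were raised by 1. A limma test between genotypes, planned for the case that columns differed, was not run because they are identical. Members and gene lists were chosen with earlier results of these data known. Those results had shown matrix and mesenchymal effector genes lowest in profile 1, which is why genes lowest there were counted. All members are named, with all paralogs and the 2 most abundant genes of most lists; other genes named were chosen after their values were seen, and some genes the rule names are not reported here. Of 207 list entries, 199 were measured, 7 shared a row with another gene and 1 was in no row. Ajuba was matched as Jub. Scaling and counting steps were tested on simulated data. Alternatives were median-ratio scaling, quantile normalization, summed rows, other minimum levels, other list summaries and leaving out each number. Python 3.11.15, pandas 2.3.3 and numpy 2.4.6 were used.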

Additional observations from a re-analysis of the deposited data

Results flagged for a closer look

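The authors' deposited table has a further FPKM column, headed as a total, that holds no sample. Its values times 9 ended at 4 decimals in 85.4% of rows between 10 and 1000 FPKM, while no other whole number between 2 and 12 gave more than 28.5%. If it is a mean over 9 values into which each profile enters 2 times, the rest is 3 values that the sample columns do not show. Under that reading 0 of 24308 rows had a rest below 0. The mean of the 3 other values, by this arithmetic, lay above all profiles for 8 of the 10 members. Of the 9 members at 1 FPKM or more it was 7, against 29.3% of all such rows.

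For the mesenchymal genes it was 7.66 FPKM for Snai2 (highest profile 3.97), 2.49 for Zeb1 (1.52), 1.89 for Zeb2 (1.16), 1.69 for Twist1 (1.54) and 115.5 for Vim (84.5). For the epithelial regulators it was 18.3 for Grhl2 (16.3), 18.9 for Ovol1 (18.1) and 3.28 for Ovol2 (1.90). Esrp1, at 57.8, lay within the profiles, and Snai1, at 2.92, lay below all of them. Of markers of other cells at 1 FPKM or more, 9 of 9 endothelial, 8 of 9 myoepithelial and basal and 3 of 3 pericyte and smooth muscle markers were above all profiles too. For fibroblast markers it was 4 of 10, near the share of all rows. Of luminal markers 3 of 10 were above and 5 below, and both myeloid markers were below. Of all 10770 rows at 1 FPKM or more, 4546 were below all profiles. Their part in the member values was not tested. The sources used here do not describe the 3 values, and no genotype was assigned to them.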

How the results depend on the processing

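No paired analysis was possible because control and Elp3 cKO columns with 1 number hold equal values. Of 106 recomputed values, 100 stayed within 1 SD of the profiles or within 1.5 times the count, 0 changed sign and 6 moved. Many of the 100 could not move. Each member has 1 row, so summing rows left its values unchanged. Leaving out 1 of the 3 profiles cannot shift a gene's median by more than the SD of the 3. Levels and counts cannot change sign, so only the log2 ratio of epithelial to mesenchymal regulators could. Among the 6 that moved is the count of mesenchymal regulators and Vim with a highest profile 1.5 times the lowest or more. It was 6 as deposited, 4 under quantile normalization and 0 to 5 with a replicate number left out. With a minimum of 5 FPKM, 5 members passed in place of 9, and 3 of those were lowest in profile 1 in place of 6. The log2 ratio of epithelial to mesenchymal regulators, 3.42, was 2.19 as a difference of mean log2(FPKM + 1), 2.52 with a pseudocount of 0.1, and 2.65 with Vim among the mesenchymal genes. Without each replicate number the log2 ratio lay between 3.39 and 3.72. Under median-ratio scaling and quantile normalization, all 5 mesenchymal regulators and Vim were still lowest in profile 1, while the share of all rows lowest there was 34.9% and 33.7%. Under quantile normalization 3 members, without Zeb1, had profiles 2 and 3 both 1.5 times profile 1 or more, and Grhl2 was highest in profile 2 and Ovol2 in profile 1. The number of distinct profiles limits precision, and low genes such as Zeb2 rest on an unknown number of fragments.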
